A study of Mus musculus with 5 samples.

Results

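Histone acetylation is set by enzymes of opposing activity, and transcripts were examined here for 9 genes that act against HDAC1 or read the mark that it removes. They were *Ep300*, *Crebbp*, *Kat2a*, *Kat2b*, *Hat1*, *Kat5* and *Ncoa1*, which encode acetyltransferases, and *Brd2* and *Brd3*, which encode bromodomain readers of the BET family. The genes were taken by symbol from the 23361 genes listed for each library, and 9 of 9 were found and passed the filter on low values, which left 12740 genes to test. Hippocampi of mice were profiled by RNA-seq at an age of 3 months. The control group (n = 2), titled WT, carried by its genotype label the floxed allele alone (*Hdac1* f/f), and the *Hdac1* cKO group (n = 3) carried the same allele together with *Nestin-Cre*, so that both groups shared the floxed allele. *Nestin-Cre* is active in neural precursors, and the study describes deletion in neurons and astrocytes, while microglia kept HDAC1. By the study's methods the young mice were males. The controls carried no Cre, so the effects of the transgene and of the deletion cannot be told apart in these data.

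Acetyltransferases move an acetyl group from acetyl-CoA onto lysines of histone tails, and histone deacetylases such as HDAC1 take it off. Acetylated lysine is bound by bromodomains, and BET proteins carry a pair of these and bring elongation factors to acetylated promoters and enhancers. In the hippocampus CBP and p300 are known as coactivators of CREB-dependent transcription in memory formation, and p300 is also the enzyme that acetylates OGG1, the glycosylase followed in the study. The comparison asks whether the transcripts of enzymes that oppose HDAC1, or of readers of acetylation, differ when *Hdac1* is deleted.

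Expression was given as FPKM, a fragment count corrected for transcript length and library size. The deleted gene measured 8.95 and 13.1 FPKM in control mice against 1.95, 3.12 and 3.37 FPKM in *Hdac1* cKO mice, so that 17.6% to 30.5% of the control mean was left, and a log2 fold change of −1.66 (limma, adjusted p = 0.219) was found. The longest *Hdac1* transcript is 98.7% identical over 1978 of its 2038 nt to *Gm10093*, and reads of the copies may not be separable. The depth was estimated at 5140000 to 6770000 fragments per library. Regardless of genotype the libraries formed a pair of sets, with control 1 and cKO 1 in set 1 and control 2, cKO 2 and cKO 3 in set 2. Pairs of libraries within a set shared 24.6% to 28.4% of their steps in low FPKM values, against 3.71% to 4.64% for pairs across sets. With the set or the replicate number as a block, *Hdac1* passed the test (adjusted p = 0.00389 and 0.0115 by limma). Set 1 also holds both libraries numbered 1, so the set and the replicate number cannot be told apart there. The tissue expressed the markers of hippocampal neurons, 8 of 8 of which were tested (summed level 257 and 291 FPKM in control mice against 256 to 278 FPKM in cKO). Choroid plexus markers ranged from 6.33 to 605 FPKM in sum, mainly through *Ttr*, with cKO 2 highest and control 2 lowest, and both groups overlapped. Fewer cells of a type and less RNA per cell cannot be told apart in such bulk samples.

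No difference between *Hdac1* cKO and control mice passed the test in these genes, from the p300 and CBP pair and the GNAT enzymes to *Kat5*, *Ncoa1* and the BET readers. By limma, 0 of 9 passed the study's threshold of a fold change of 1.5 with a p under 0.05, taken here as unadjusted. This threshold was passed by 0.659% of all tested genes. The study named neither a test nor an adjustment for it, so that share is of the limma fit and not the study's own. At an unadjusted p under 0.05 alone 0 of 9 were found, where 4.36% of all genes were, and 0 of 9 passed an adjusted p of 0.05, where 0.00785% of all genes did. The control and cKO libraries overlapped in 9 of 9 genes, while 20.4% of all tested genes had groups that did not overlap. In the cKO libraries 5 genes were higher and 4 lower by their fitted difference, and after rescaling to a common total, where the median of all genes was −0.05, 1 of 9 was higher. Their median log2 fold change was 0.0068 beside 0.01 for all tested genes, and their median absolute log2 fold change was 0.0414 beside 0.0997. The mean over 5 libraries was at least 5.27 FPKM for each of the 9, against a minimum of 1 FPKM for all tested genes. The shares and medians of all tested genes are therefore not matched for level. Adjusted p-values from limma lay between 0.962 and 0.995.

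The confidence intervals set a limit on the size of any difference. The 95% confidence interval of the log2 fold change lay inside a 1.5-fold change in either direction for 9 of 9 genes, as it did for 82.3% of all tested genes. The farthest end of the interval corresponded to a 1.21-fold change for *Ncoa1*, 1.22-fold for *Ep300* and for *Crebbp*, and 1.44-fold for *Hat1*, on the log2(FPKM + 1) scale, which understates changes of low genes. Without control 1, control 2, cKO 2 or cKO 3 the interval of *Hat1* reached 1.56-fold, 1.63-fold, 1.57-fold and 1.55-fold, so that it lay inside for 8 of 9 genes, as it did with no filter (1.51-fold) and with TPM scaling (1.5-fold). These intervals are not adjusted for the number of genes and rest on 5 libraries.

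**Figure D1:**
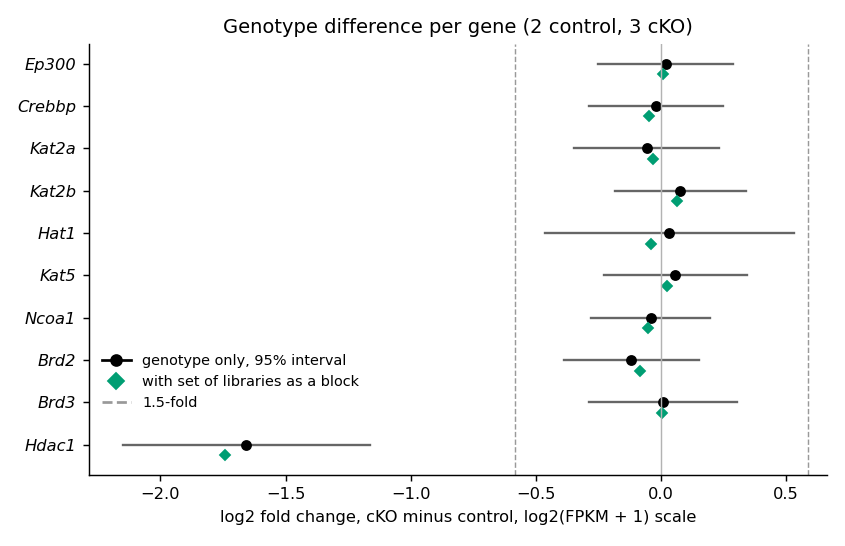
Log2 fold change (x axis, cKO minus control on the log2(FPKM + 1) scale) of the 9 genes and *Hdac1* (y axis). Black points and lines give the limma estimate with its 95% interval (2 control and 3 cKO libraries), green diamonds the estimate with the set of libraries as a block, and dashed lines a 1.5-fold change. Only *Hdac1*, at −1.66, lies beyond the dashed lines, and the widest interval among the other genes is that of *Hat1*.

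*Ep300* and *Crebbp* encode p300 and CBP, a pair of paralogous acetyltransferases with broad targets among histones and transcription factors. *Ep300* (ENSMUSG00000055024.5) is found at positions 81415781 to 81482507 of chromosome 15, plus strand (mm9), and like the other 8 it is annotated as protein-coding. Its level measured 6.25 and 6.41 FPKM in control mice against 6.17, 6.83 and 6.27 FPKM in *Hdac1* cKO mice, and the 5 libraries were within 1.11-fold of each other. Its means were 6.33 ± 0.116 FPKM (SD, n = 2) and 6.42 ± 0.360 FPKM (SD, n = 3), and the log2 fold change was 0.02 (SE 0.12, limma adjusted p = 0.989). *Crebbp* (ENSMUSG00000022521.7) is found at positions 4084048 to 4213404 of chromosome 16, minus strand. Its level measured 12.2 and 13.8 FPKM in control mice against 11.7, 13.2 and 13.5 FPKM in *Hdac1* cKO mice. Both libraries of set 1 were below the 3 libraries of set 2, in controls as in cKO, and the genotypes overlapped. The log2 fold change was −0.02 (SE 0.12, limma adjusted p = 0.989). The transcript of *Ep300* was the smaller part of the pair in every library, with 33.8% and 31.7% of the summed FPKM in control mice against 34.5%, 34.1% and 31.7% in cKO.

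*Kat2a* and *Kat2b* encode GCN5 and PCAF, paralogous enzymes that acetylate histone tails within the SAGA and ATAC complexes. *Kat2a* (ENSMUSG00000020918.7) is found at positions 100566060 to 100573779 of chromosome 11, minus strand. Its level measured 12.2 and 10.3 FPKM in control mice against 11.4, 11.2 and 9.75 FPKM in *Hdac1* cKO mice, with a log2 fold change of −0.06 (SE 0.13, limma adjusted p = 0.986). *Kat2b* (ENSMUSG00000000708.8) is found at positions 53706186 to 53812045 of chromosome 17, plus strand. Its level measured 7.63 and 7.83 FPKM in control mice against 7.71, 8.65 and 8.28 FPKM in *Hdac1* cKO mice. The cKO 1 library lay between the controls, the other cKO libraries lay above both, and the log2 fold change was 0.08 (SE 0.11, limma adjusted p = 0.974). Its transcript is 95.1% identical over 2479 nt to a pseudogene, *Kat2b-ps*, which is not among the listed genes, so its reads are uncertain to that extent. *Kat2a* made up 61.6% and 56.8% of the summed FPKM of the pair in the controls and 59.6%, 56.4% and 54.1% in cKO.

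*Hat1* encodes the acetyltransferase of newly made histones, which acts before the histone is placed on DNA, and it varied most among the libraries. The gene (ENSMUSG00000027018.5) is found at positions 71227015 to 71279679 of chromosome 2, plus strand. Its level measured 9.42 and 9.97 FPKM in control mice against 6.85, 12.1 and 11.8 FPKM in *Hdac1* cKO mice. The lowest and the highest library were both cKO, with a ratio of 1.76, and the controls lay between them. The means were 9.69 ± 0.393 FPKM (SD, n = 2) and 10.2 ± 2.93 FPKM (SD, n = 3), and the log2 fold change was 0.03 (SE 0.22, limma adjusted p = 0.989). Within set 1 the cKO library was lower than the control by 0.41 on the log2 scale, and within set 2 the cKO libraries were higher by 0.24, so the direction turned between the sets. Without cKO 1 the log2 fold change was 0.27 (limma adjusted p = 0.659, 0.0596 before adjustment). *Hat1* has the shortest transcript of the 9 genes and was read from an estimated 88 to 141 fragments per library. Counting error at 88 fragments is 10.7%, against an observed coefficient of variation of 21.0% over the 5 libraries.

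*Kat5* encodes TIP60, a MYST family enzyme that acetylates histones and the damage kinase ATM. It was the highest of the acetyltransferases, and the gene (ENSMUSG00000024926.8) is found at positions 5603017 to 5610050 of chromosome 19, minus strand. Of its 2356 exonic nt, 423 are shared with exons of *Rnaseh2c* on the opposite strand, and whether counting used the strand was not stated. *Kat5* measured 24.1 and 31.3 FPKM in control mice against 27.6, 29.4 and 28.8 FPKM in *Hdac1* cKO mice. The controls marked the lowest and the highest value and the 3 cKO libraries lay inside that range. The log2 fold change was 0.06 (SE 0.12, limma adjusted p = 0.988).

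*Ncoa1* encodes SRC-1, a coactivator of nuclear receptors that recruits p300 and CBP and has acetyltransferase activity of its own. The gene (ENSMUSG00000020647.8) spans chromosome 12 from 4247363 to 4484060 on the minus strand. Its level measured 18.1 and 20.4 FPKM in control mice against 18.7, 18.3 and 18.9 FPKM in *Hdac1* cKO mice, again inside the range of the controls. The log2 fold change was −0.04 (SE 0.10, limma adjusted p = 0.989), the smallest standard error of the 9 genes.

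*Brd2* and *Brd3* encode BET readers, which bind acetylated histone tails and bring transcription machinery to them. *Brd2* (ENSMUSG00000024335.12, chromosome 17, 34248965 to 34259262, minus strand) was the highest of the 9 genes, at 65.0 and 56.2 FPKM in control mice against 61.6, 51.1 and 54.5 FPKM in cKO. The libraries of set 1 were above those of set 2 in both genotypes, and within each set the cKO libraries were below the control. With all 5 libraries the log2 fold change of −0.12 (SE 0.12) was the largest of the 9 genes in size. It did not pass the test (limma adjusted p = 0.962, 0.337 before adjustment). With the set as a block it was −0.08 (limma adjusted p = 0.719), and within the sets it was −0.08 and −0.09. Without control 1 *Brd2* was at −0.016, with *Ncoa1* and *Kat5* each at −0.12. Without control 2 *Brd2* was at −0.22 and *Kat5* at 0.24, and without cKO 1 *Brd2* was at −0.19 and *Hat1* at 0.27. *Brd3* (ENSMUSG00000026918.10, chromosome 2, 27301099 to 27363182, minus strand) was the lowest, at 4.95 and 5.55 FPKM in control mice against 5.43, 5.61 and 4.81 FPKM in cKO, with a log2 fold change of 0.0068 (SE 0.13, limma adjusted p = 0.995). Of the summed FPKM of the pair, *Brd2* made up 90.1% to 92.9% over the 5 libraries.

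**Figure D2:**
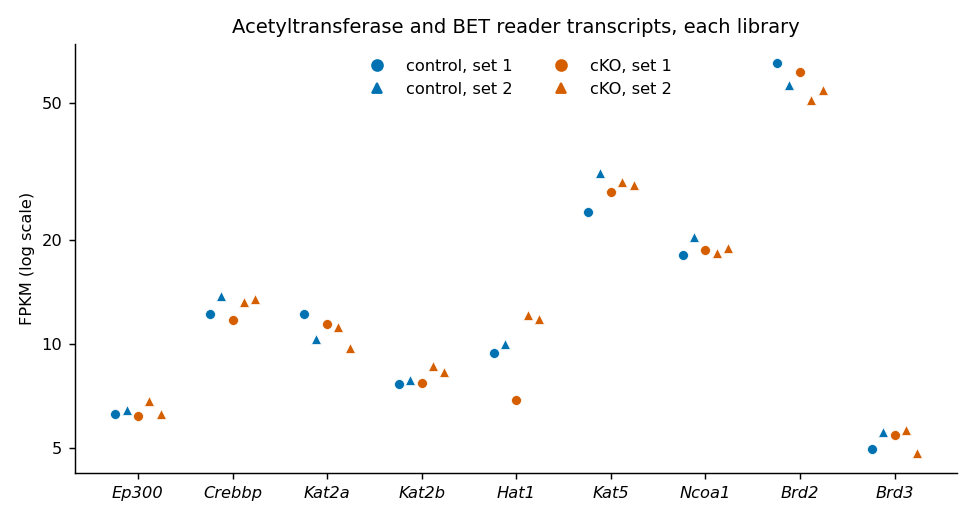
FPKM (y axis, log scale) of each of the 9 genes (x axis) in every library. Blue marks are control and orange marks cKO libraries, circles are set 1 and triangles set 2. Control and cKO marks overlap for every gene, *Hat1* has its lowest mark in cKO 1 (6.85 FPKM), and the circles of *Brd2* lie above its triangles.

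FPKM are scaled to length, so levels of different genes can be placed in order. *Brd2* was followed by *Kat5* and *Ncoa1*, and each of these exceeded the next gene in 5 of 5 libraries with ranges that did not overlap. *Crebbp*, *Kat2a*, *Hat1* and *Kat2b* came next, and their neighbours in the order had overlapping ranges. *Crebbp* exceeded *Kat2a* in 4 libraries, *Kat2a* exceeded *Hat1* in 3 and *Hat1* exceeded *Kat2b* in 4. *Kat2b* then exceeded *Ep300*, and *Ep300* exceeded *Brd3*, in 5 of 5 libraries. The summed level of the 7 acetyltransferases was 89.9 and 100 FPKM in control mice against 90.1, 99.6 and 97.3 FPKM in cKO, lower in set 1 than in set 2 in both genotypes.

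**Figure D3:**
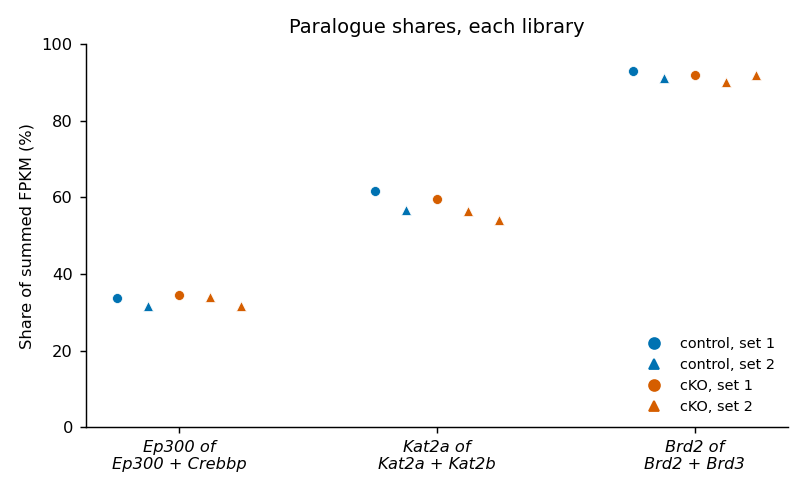
Share of the summed FPKM (y axis, percent) taken by *Ep300* in the *Ep300* and *Crebbp* pair, by *Kat2a* in the *Kat2a* and *Kat2b* pair, and by *Brd2* in the *Brd2* and *Brd3* pair (x axis), per library, with colours for genotype and shapes for set. Shares lie between 31.7% and 34.5%, between 54.1% and 61.6%, and between 90.1% and 92.9%, and control and cKO marks overlap in each.

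Differences between the sets were larger than those between genotypes in these genes. In a fit with genotype and set, the set term was larger in size than the genotype term for 9 of 9 genes, as it was for 61.3% of all tested genes. The sets did not overlap in 7 of 9 genes, beside 40.1% of all tested genes. *Hat1* was higher in set 2 by 0.44 on the log2 scale (SE 0.15, limma adjusted p = 0.136, 0.0187 before adjustment), and *Brd2* was lower in set 2 by 0.21 (SE 0.07, limma adjusted p = 0.118, 0.0137 before adjustment). The controls stood close together for *Hat1* (9.42 and 9.97 FPKM), and its difference between sets lay mainly among the cKO libraries. These were the 2 of 9 genes with an unadjusted p under 0.05, where 22.9% of all tested genes were found, and 0 of 9 passed an adjusted p of 0.05, which 3.09% of all tested genes passed. With the set in the fit, 0 of 9 genes had an unadjusted limma p under 0.05 for genotype, where 9.34% of all tested genes did. The log2 fold changes for genotype were then 0.0084 for *Ep300*, −0.05 for *Crebbp*, −0.03 for *Kat2a*, 0.06 for *Kat2b*, −0.04 for *Hat1*, 0.02 for *Kat5*, −0.05 for *Ncoa1* and 0.0020 for *Brd3*. Within set 1 and set 2 the difference kept its sign for *Crebbp* (−0.05 and −0.04), *Kat2b* (0.01 and 0.10) and *Brd2*. It changed sign for *Ep300* (−0.02 and 0.03), *Kat2a* (−0.10 and 0.02), *Kat5* (0.19 and −0.10), *Ncoa1* (0.05 and −0.13), *Brd3* (0.11 and −0.08) and *Hat1*. Differences within a set rest on 1 control library and have no test. An unadjusted limma p under 0.05 for set was found in 5 of 8 hippocampal neuron and 7 of 12 neuron markers. It was found in 4 of 6 oligodendrocyte precursor, 2 of 12 astrocyte, 2 of 10 microglia and 1 of 7 endothelial markers. In oligodendrocyte, choroid plexus and other-region markers 0 were found, beside 22.9% of all tested genes. The cause of the differences between sets was not tested.

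**Figure D4:**
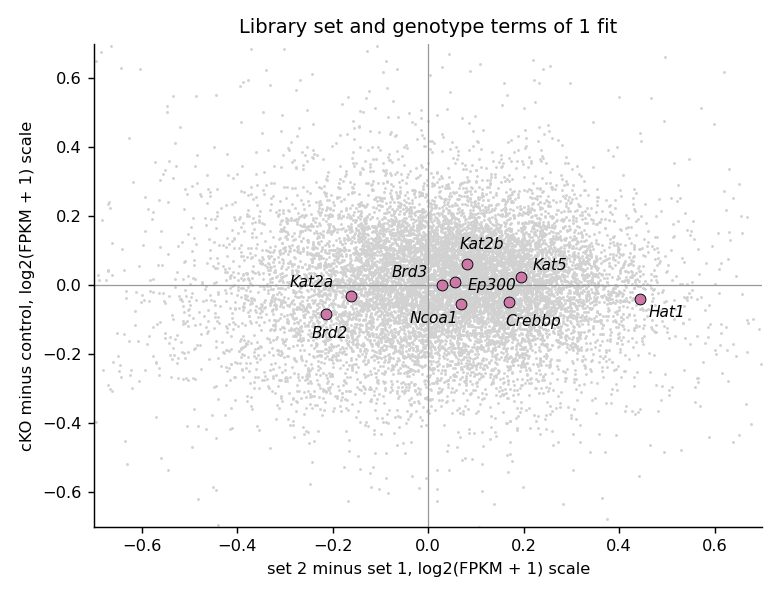
Terms of a limma fit with genotype and set, for the 9 genes (pink, named) over all tested genes (grey), with set 2 minus set 1 on the x axis and cKO minus control on the y axis, both on the log2(FPKM + 1) scale. The 9 genes lie near 0 on the genotype axis (−0.08 to 0.06) and spread from −0.21 (*Brd2*) to 0.44 (*Hat1*) on the set axis, and 176 genes lie beyond the axes.

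Genes that work with these enzymes were read from 8 lists, of which 137 of 141 genes were tested. Of the 137, 71 were higher and 66 lower in cKO with a median log2 fold change of 0.0040, beside 0.01 for all tested genes. By limma 0 passed an adjusted p of 0.05 or the study's threshold, and 3 (2.19%) had an unadjusted p under 0.05, beside 4.36% of all genes. The 13 other catalytic acetyltransferases had a median of 0.05, with 0 at that level. The SAGA and ATAC subunits, partners of *Kat2a* and *Kat2b*, had a median of 0.04 (22 genes), and the TIP60 complex subunits, partners of *Kat5*, had a median of 0.0017 (17 genes), with 0 at an unadjusted p under 0.05 in each. The scaffold subunits of MYST enzymes and partners of HAT1 had a median of −0.05 (16 genes), the partners of BET proteins 0.02 (17 genes) and the enzymes of nuclear acetyl-CoA supply 0.01 (8 genes), also with 0 in each. With the set as a block an unadjusted limma p under 0.05 was found for 1 other acetyltransferase, 1 SAGA and ATAC subunit, 2 TIP60 complex subunits and 1 partner of BET proteins, beside 9.34% of all genes. Among 28 other bromodomain and YEATS proteins the median was 0.02, and *Trim66*, a bromodomain protein, was at 1.60 and 1.79 FPKM in control mice against 1.28, 0.942 and 0.967 FPKM in cKO (log2 fold change −0.39, limma adjusted p = 0.955, 0.0420 before adjustment, and 0.0582 with the set and 0.0982 with the replicate number as a block).

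The activators and adaptors that bind p300 and CBP had the lowest median of the 8 lists, −0.15, with 12 of 16 tested genes lower in cKO, 2 of them at an unadjusted limma p under 0.05 and 0 at an adjusted p of 0.05, beside 46.3% of all tested genes that were lower and 1.99% that were lower at an unadjusted p under 0.05. With the set as a block 4 of the 16 had an unadjusted limma p under 0.05, beside 9.34% of all genes. Without control 1 or control 2, 10 of the 16 were lower, with medians of −0.12 and −0.17. *Cited2*, which competes with HIF1A for p300 and CBP, was at 10.3 and 10.5 FPKM in control mice against 8.62, 6.24 and 7.81 FPKM in cKO (log2 fold change −0.42, SE 0.14, limma adjusted p = 0.955). *Mef2d*, a neuronal transcription factor, was at 27.0 and 22.7 FPKM in control mice against 21.6, 18.1 and 17.9 FPKM in cKO (−0.36, SE 0.13, limma adjusted p = 0.955), with −0.24 without control 1 and −0.48 without control 2. Both genes had cKO libraries below both controls, as 9.41% of all tested genes did. Neuron markers were also mostly lower. Of 12 tested, 0 of them at 0, 11 were lower in cKO, 3 at an unadjusted p under 0.05 (46.3% and 1.99% of all tested genes), with a median of −0.15 and sums of 2360 and 2550 FPKM in control mice against 2270 to 2440 FPKM in cKO. Without control 2, 7 of the 12 were lower, with a median of −0.07, and the median was −0.23 without control 1 and −0.10 without cKO 2. Astrocyte markers summed to more in cKO, 3570 and 3630 FPKM in control mice against 3830 to 3990 FPKM, with 8 of 12 higher, 2 of them at an unadjusted p under 0.05 and 1 past the study's threshold (53.7%, 2.37% and 0.659% of all tested genes, the last in either direction). Their median was 0.07, and it was 0.13 without control 1. After median-ratio, quantile or TPM scaling 6 of the 12 were higher, with medians of 0.05, 0.04 and 0.0028. The sums are of FPKM before any such scaling. Of 10 oligodendrocyte markers 9 were higher, 1 at an unadjusted p under 0.05, with a median of 0.12, and the sums overlapped. With TPM scaling 7 of the 10 were higher, and without control 2, without cKO 3 or with the replicate block 6 were. The median was then 0.06 with TPM, 0.06 without control 2 and 0.01 without cKO 3 or with the replicate block, and it was 0.21 without control 1 and 0.19 without cKO 2. Markers of other brain regions also summed to less, 42.0 and 44.6 FPKM in control mice against 28.2 to 32.8 FPKM in cKO. Of these 8 markers 5 were tested, 4 were lower and 1 higher, with a median of −0.24. By limma 2 were lower at an unadjusted p under 0.05, and 1 passed the study's threshold. The shares of all tested genes were 46.3% lower, 1.99% lower at that level and 0.659% past the threshold in either direction. Of oligodendrocyte precursor markers 4 of 6 were lower (median −0.14), of endothelial markers 4 of 7 (−0.09) and of microglia markers 5 of 10 (−0.01). In each of these lists the sums overlapped and 0 genes had an unadjusted limma p under 0.05 (4.36% of all tested genes). With the set as a block 1 gene of each list did (9.34% of all tested genes). With that block so did 4 of 12 neuron, 5 of 12 astrocyte, 1 of 10 oligodendrocyte and 2 of 5 other-region markers, in either direction. Of hippocampal neuron markers 1 of 8 did, and of choroid plexus markers 0 of 4. The part of cell composition or of the dissected tissue in the lower values of *Cited2* and *Mef2d* was not tested.

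**Figure D5:**
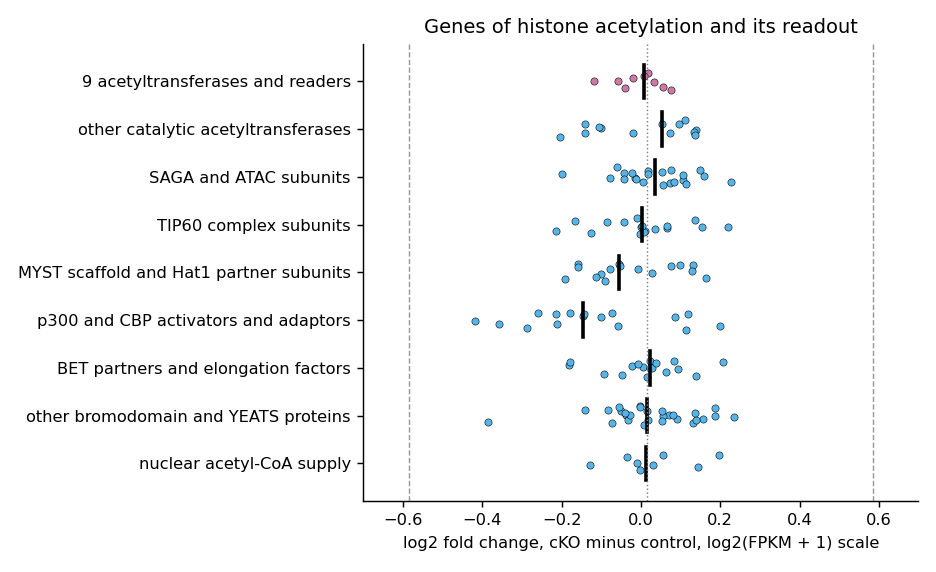
Log2 fold change (x axis, cKO minus control, log2(FPKM + 1) scale) of the tested genes of each list (y axis), with black bars for list medians, a dotted line for the median of all tested genes (0.01) and dashed lines for a 1.5-fold change. No gene of these lists lies beyond the dashed lines, and the p300 and CBP activators and adaptors have the lowest median (−0.15).

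The promoters of the 9 genes were read from RefSeq windows (GRCm38.p6, 250 bases before to 50 after a start site), of which 13 belong to these genes, 9 of 9 matched. The study examined guanine-rich promoter motifs, and the GC box GGGCGG, a motif of SP factors, was therefore searched on both strands. It was found in windows of 7 of the 9 genes, beside 38.2% of all genes with a window, and not in those of *Kat2a* and *Kat2b*. The shares and the median over all windows were not limited to expressed genes, while the 9 genes all passed the filter on low values. The cAMP response element TGACGTCA, the motif of CREB, was found in 0 of the 13 windows, beside 1.79% of all windows. Only the full motif was searched, so partial matches were not counted. The site nearest a start is shown for each of the 7 genes, with the motif in capitals (reverse complement for *Brd2*), to let the paralogues be compared.
Ep300 (chr15:81586089-81586118, plus strand): gaggaggaggaGGGCGGctctcagggtggg
Crebbp (chr16:4213407-4213436, minus strand): cggccgggggcGGGCGGtgagcgctgcggg
Hat1 (chr2:71389190-71389219, plus strand): tcgccgaggatGGGCGGgggaaacgcgtaa
Kat5 (chr19:5609736-5609765, minus strand): ctgcaatcccgGGGCGGtcgcagatactcg
Ncoa1 (chr12:4477192-4477221, minus strand): cgcgagcggggGGGCGGcggcggcggtggc
Brd2 (chr17:34119851-34119880, minus strand): cgcagccaagaacctttcgcCCGCCCcgcc
Brd3 (chr2:27475383-27475412, minus strand): gcaacaaagcgGGGCGGccgcctgcccggg
The sites lie from 114 bases before (*Ep300*) to 40 bases after (*Brd2*) a start, and *Ncoa1* holds 7 sites, the most of the 9 genes. The GC content of the first window of each gene ranged from 47.0% (*Kat2b*) and 54.3% (*Kat2a*) to 82.0% (*Crebbp*) and 84.7% (*Ncoa1*), beside a median of 52.7% over all windows. A match is a description of the letters and not of binding.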

How the data were processed

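Hippocampal RNA of 5 mice (2 control, 3 *Hdac1* cKO) was sequenced by the authors from Illumina TruSeq Total RNA libraries on a HiSeq 2000. The files hold FPKM per gene, deposited by the authors after alignment with Tophat2 and quantification with Cufflinks 2.0.0 (mm9). They are not counts, and no read totals were used. From these values log2(FPKM + 1) was tested with limma 3.58.1 in R 4.3.3 (eBayes with a mean-variance trend, genotype as the only term, two-sided, all 5 libraries in 1 fit) over the 12740 genes whose mean reached 1 FPKM, and p-values were adjusted by Benjamini-Hochberg over all of them. The labels give each sample a title of its own but do not state that mice were not pooled, and p-values measure the spread between these samples. Set 1 and set 2 were found from repeated ratios among genes with a mean under 0.3 FPKM, in windows of 0.05 log2 units, with over 10% shared. Depth was estimated from the most common value of FPKM times length in genes with 1 annotated transcript, and is approximate, as are fragment numbers from it, which cover counting error only. Coordinates are 1-based GENCODE vM1 (NCBIM37, the same assembly as mm9), in which 90.8% of symbols matched. Copies were searched with BLAST 2.17.0 (at least 95% identity over 200 nt). The fit was tested on simulated data. The 9 genes, the lists and the sets were chosen with earlier results of these data known. Genes named beside the 9 were *Hdac1* and, per pathway list, up to 4 with the lowest unadjusted p under 0.05, and the gene that led a marker sum or shared sequence with a gene was named after its values were seen. A gene fixed by name beside the 9 is not reported here and was left out of the lists. Marker lists of neurons, hippocampal neurons, astrocytes, oligodendrocytes, oligodendrocyte precursors, microglia, endothelium, choroid plexus and other brain regions are described in the report. Alternatives were another pseudocount, filter, scaling or variance model, a replicate or set block, and leaving out each library.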

Additional observations from a re-analysis of the deposited data

How the results depend on the processing

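Under 14 alternatives with a test, 0 of the 9 genes passed the study's threshold, an unadjusted p under 0.05 or an adjusted p of 0.05. Of 126 such log2 fold changes of the 9 genes, 105 kept their direction and 21 changed it. Rescaling to a common total (TPM), which shifted the all-gene median from 0.01 to −0.05, gave −0.042 for *Ep300*, −0.029 for *Hat1*, −0.0076 for *Kat5* and −0.053 for *Brd3*, and median-ratio factors gave −0.0059 for *Brd3*. The set block gave −0.041 for *Hat1*. The cause was not tested. Same-numbered libraries deviated together (r = 0.402 and 0.269 over 12740 genes, and 0.151 for control 2 with cKO 3). With 2 controls, deviations from the group mean mirror each other, so these correlations are not independent observations. Both same-numbered pairs also lie within a library set, and the labels name no litter or batch behind the numbers. The replicate block gave 0.0052 for *Kat2a*, −0.078 for *Hat1* and −1.77 for *Hdac1* (limma adjusted p = 0.0115). It called 133 genes in place of 84, with 14 in place of 1 at an adjusted p of 0.05. In this block cKO 3 has no partner, and the fold changes of the 9 genes and *Hdac1* equalled those without cKO 3. Leaving out cKO 3 with no block called 113 genes. The set block gave 5 genes at an adjusted p of 0.05 and −1.74 for *Hdac1* (limma adjusted p = 0.00389). A pseudocount of 0.1 called 142 genes and a minimum of 5 FPKM 43. TPM called 124, of which 41.1% were higher in place of 60.7%. Of the calls without control 2 46.8% were higher, and without cKO 1 45.9%. Leaving out 1 library gave 92 to 231 calls and 1 to 5 at the adjusted p, and log2 fold changes from −0.022 to 0.042 for *Ep300*, −0.10 to 0.061 for *Crebbp*, −0.17 to 0.057 for *Kat2a*, 0.043 to 0.12 for *Kat2b*, −0.095 to 0.27 for *Hat1*, −0.12 to 0.24 for *Kat5*, −0.12 to 0.042 for *Ncoa1*, −0.22 to −0.016 for *Brd2*, −0.062 to 0.076 for *Brd3* and −1.91 to −1.41 for *Hdac1*. A control group left with 1 library is assumed to vary like the cKO group. *Hat1* had the fewest estimated fragments of the 9 genes (88 to 141 per library).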
